A study of Mus musculus with 30 samples.

Results

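Skeletal muscle genes were followed through the tumors and cultures of 2 colon carcinoma models of the BALB/c mouse, CT-26 and Colon 26. The set held 36 genes of the contractile apparatus and energy supply of muscle fibers, out of 53431 genes counted, and all 36 symbols were found in the count table. The members were chosen by name, as genes read above the cultures in some tumors, with earlier results of these libraries known, so the difference between tumors and cultures is given here as a description with no test. Of the 36 genes, 14 encode isoforms of fast fibers, 7 isoforms of slow fibers, 2 myosins of developing muscle and 13 proteins of all fiber types. The cells had been implanted under the skin, on the right flank, in BALB/c females. Tumors were taken at about 100, 400 and 800 mm3, with 4 tumors of each model at each size, and each cell line was sequenced as 3 cultures, which gave 24 tumors and 6 cultures. The exact volumes were 103.33 to 145.86, 400.47 to 464.68 and 810.36 to 938.57 mm3 in the CT-26 model, and in the Colon 26 model 102.9 to 124.88, 401.52 to 466.73 and 807.93 to 963.18 mm3. Antibodies are named in the general treatment text but not for a given sample, and the ages of the mice were not given in the sources used here. The labels do not number the replicates, so tumors 1 to 4 of a group are named in the order of their records. Each tumor library is labelled with a different tumor volume, but nothing in the labels names the animals or says that each culture library came from a separate culture. The p-values below measure the spread between libraries, which may be partly technical. Counts on genes summed to 22923571 to 35681885 per tumor and to 21384697 to 39722554 per culture. No batch is labelled.

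Skeletal muscle fibers contract when myosin filaments pull on actin filaments that are anchored at the Z disc. Calcium that is released through the ryanodine receptor binds the troponin complex on the actin filament, and a calcium pump returns it to the sarcoplasmic reticulum. Fast and slow fibers use different genes for the myosin heavy and light chains, the troponins and myosin binding protein C, and embryonic and perinatal myosins are used in developing and regenerating fibers. The muscles of the mouse trunk and limb are mostly fast, and a thin sheet of skeletal muscle lies in the skin of the flank.

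Muscle promoters are bound by factors of the MyoD family, which recognise E-boxes, and by MEF2 and serum response factor, whose sites are the MEF2 site and the CArG box. RefSeq windows (GRCm38.p6) of the 250 bases before the transcription start were found for 29 of the 36 genes, 35 windows in all. The E-box CAGCTG, searched on both strands, was in 16 of the 35 windows (45.7%) and in 13.0% of all 32851 windows of this length. The MEF2 site was in 5 (14.3%, against 2.92% of all windows), the CArG box in 3 (8.57%, against 1.47%) and TATAAA, searched on the strand of the gene only, in 5 (14.3%, against 7.59%). A MEF2 site can overlap TATAAA, so these counts are not independent. Some genes have several windows that overlap and hold the same E-box, as Tnni1 and Mb do, and by gene it was found for 14 of 29. It was found for 5 of 10 fast genes and for 3 of 7 slow genes. The windows of 3 genes are shown because their genes, skeletal actin, the heavy chain of the fastest fibers and desmin, were among the most abundant in the tumors, with matches to the 4 motifs in capitals.
Acta1, chr8:123894776-123895025, minus strand: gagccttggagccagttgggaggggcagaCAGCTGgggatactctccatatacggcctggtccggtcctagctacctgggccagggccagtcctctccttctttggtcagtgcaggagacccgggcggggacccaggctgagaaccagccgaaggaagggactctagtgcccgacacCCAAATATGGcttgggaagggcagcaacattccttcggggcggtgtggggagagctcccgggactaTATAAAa
Myh4, chr11:67237562-67237811, plus strand: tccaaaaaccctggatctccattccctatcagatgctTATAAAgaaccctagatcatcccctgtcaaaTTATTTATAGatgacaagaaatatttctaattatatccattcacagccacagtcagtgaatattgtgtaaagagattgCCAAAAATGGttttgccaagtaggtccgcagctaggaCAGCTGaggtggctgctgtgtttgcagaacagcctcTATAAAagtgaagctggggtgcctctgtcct
Des, chr1:75360042-75360291, plus strand: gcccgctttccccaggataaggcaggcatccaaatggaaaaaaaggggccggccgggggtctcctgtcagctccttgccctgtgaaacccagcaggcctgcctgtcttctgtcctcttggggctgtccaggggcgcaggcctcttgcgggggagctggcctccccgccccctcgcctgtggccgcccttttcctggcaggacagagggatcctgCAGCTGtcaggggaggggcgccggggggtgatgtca
The Acta1 window held a CArG box that began 73 bases before the start, an E-box at 221 bases and TATAAA at 7 bases. The Myh4 window held a MEF2 site at 182 bases, a CArG box at 104, an E-box at 67 and TATAAA at 213 and 31 bases. In the Des window only an E-box, 36 bases before the start, was matched. These starts lie 24, 217 and 37 bases from the starts of the genes in the GENCODE annotation.

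Most of the 36 genes were close to absent from the cultures, and a few were not. For levels between libraries the unit was CPM, in which counts are scaled to the TMM-normalized size of each library. Eno3, which encodes the enolase subunit abundant in muscle, was at 151 to 163 CPM in CT-26 cultures and at 145 to 150 CPM in Colon 26 cultures. It made up 89.9 to 91.0% of the summed CPM of the set in CT-26 cultures and 94.2 to 94.7% in Colon 26 cultures. Its counts in tumors, 1612 to 5750, were of the order of those in cultures, 3395 to 6231, and sums over the set are given without it unless stated. Without Eno3 the other 35 genes summed to 16.2 to 17.1 CPM in CT-26 cultures and to 8.22 to 9.22 CPM in Colon 26 cultures. In each culture 19 to 22 of the 36 genes had at most 3 counts, the number taken here as the floor of a library. Pvalb, Myl3 and the other genes at the floor therefore served as markers with almost no background from the carcinoma cells.

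The cultures of the 2 models differed in 4 of the 11 genes that passed the filter on low counts. Genes were called at a Benjamini-Hochberg adjusted p of at most 0.1 and a log2 fold change of at least 1 in edgeR's quasi-likelihood test, and 22.9% of all genes tested were called between the cultures. Actn3, the alpha-actinin of fast fibers, had 56, 64 and 67 counts in Colon 26 cultures and 1, 4 and 4 in CT-26 cultures, and was higher in Colon 26 by 3.67 on the log2 scale (SE 0.34, adjusted p = 5.6e-08 in edgeR). Des, the intermediate filament of muscle, had 38, 39 and 41 counts in Colon 26 and 140, 161 and 150 in CT-26 (log2 fold change -2.60, SE 0.15, adjusted p = 8.4e-11 in edgeR). For both genes the groups did not overlap. Mylpf, the fast regulatory light chain, and Tnni1, the slow inhibitory troponin, were also lower in Colon 26, with log2 fold changes of -1.54 and -2.54. The count of genes called was 2 when each gene needed at least 10 counts in every library. Model and series of library numbers cannot be told apart in the cultures.

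In the tumors the set without Eno3 ranged from 9.79 to 5147 CPM, and tumors of one group differed widely. Among CT-26 tumors, the 4 of 100 mm3 held 9.79, 539, 87.1 and 1069 CPM. CT-26 tumors of 400 mm3 held 11.3, 14.1, 10.6 and 633 CPM, and those of 800 mm3 held 99.4, 30.4, 504 and 53.0 CPM. Of the CT-26 tumors, 1 of 100 mm3 and 3 of 400 mm3 were thus below the level of their own cultures, while the others were above it. In Colon 26, tumors of 100 mm3 held 408, 2495, 286 and 525 CPM, tumors of 400 mm3 held 5147, 17.8, 25.4 and 13.1 CPM, and tumors of 800 mm3 held 11.6, 12.1, 10.8 and 11.3 CPM. All 4 small Colon 26 tumors were high, 1 of 4 at the middle size was the highest of all 24, and the 4 large ones sat just above the cultures. The plot of the summed level shows these values on a log axis.

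**Figure D1:**
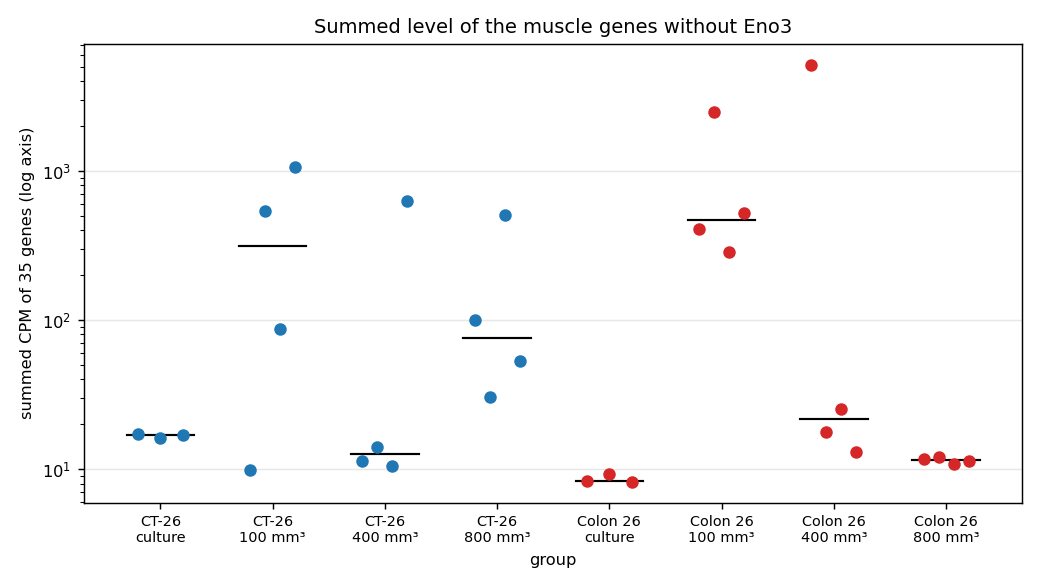
Summed CPM of 35 muscle genes (the set without Eno3) in each library, on a log axis, by group, with CT-26 in blue, Colon 26 in red and a line at the median of each group. Large Colon 26 tumors lie between 10.8 and 12.1 CPM, and the highest tumor, of Colon 26 at 400 mm3, lies at 5147 CPM.

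As a share of all counts the muscle genes stayed small even where they were highest. Without Eno3 they took 0.541% of the counts of Colon 26 tumor 1 of 400 mm3 (95% Wilson interval 0.538 to 0.544, counting error only) and 0.254% of Colon 26 tumor 2 of 100 mm3 (0.253 to 0.256). In CT-26 the highest share was 0.108% (0.107 to 0.109), in tumor 4 of 100 mm3. In these bulk samples fewer muscle fibers and less RNA per fiber cannot be told apart. Of the 36 genes, 8 to 35 exceeded the highest culture in a given tumor, with the fewest in Colon 26 tumor 4 of 800 mm3 and the most in Colon 26 tumor 1 of 400 mm3. The heat map of the set shows that the same libraries were bright for nearly all fast genes and genes of all fiber types.

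**Figure D2:**
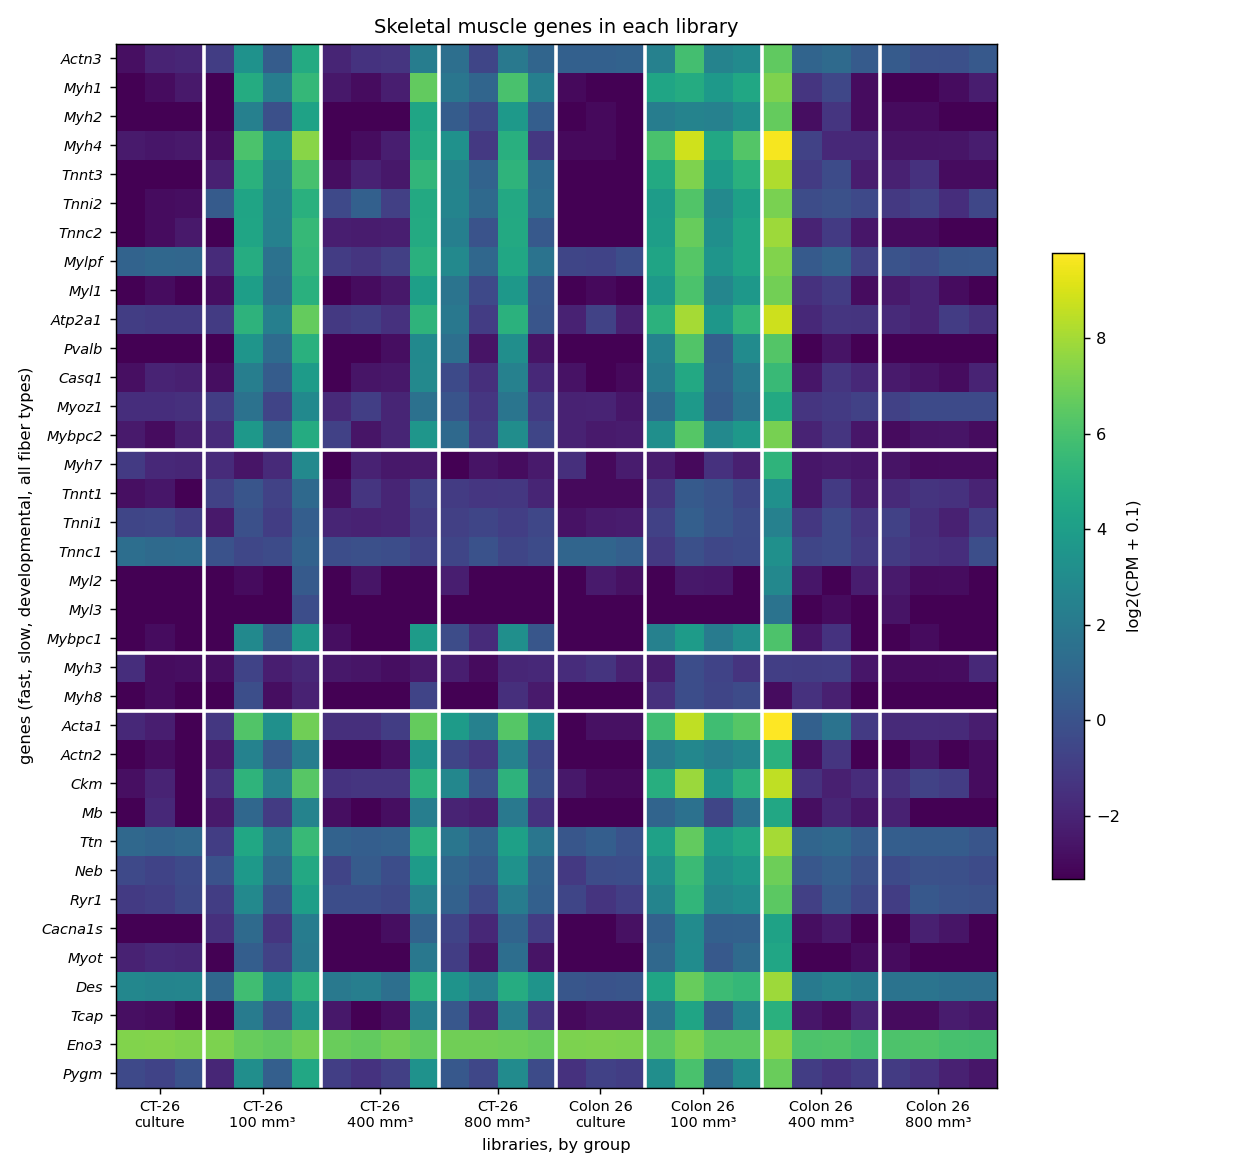
Level of each of the 36 genes (rows, in the order fast, slow, developmental and all fiber types) in each of the 30 libraries (columns, by group), as log2(CPM + 0.1). Bright columns recur across the fast and shared genes, Eno3 is high in every library, and Myh7, Myl2 and Myl3 are bright in few tumors.

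Acta1, the actin of the thin filament in skeletal muscle (chromosome 8, 123891769 to 123894751, GRCm38), had the largest sum of counts of any gene of the set but Eno3. It was at 0.338, 74.1, 9.48 and 125 CPM in CT-26 tumors of 100 mm3, at 0.237, 0.239, 0.422 and 103 CPM at 400 mm3, and at 14.5, 5.26, 80.2 and 8.51 CPM at 800 mm3. In Colon 26 it was at 54.3, 369, 55.1 and 80.3 CPM at 100 mm3, at 884, 1.52, 3.14 and 0.361 CPM at 400 mm3, and at 0.192, 0.209, 0.198 and 0.111 CPM at 800 mm3. The cultures reached at most 0.186 CPM, so every tumor but Colon 26 tumor 4 of 800 mm3 was above the highest culture, and the other 3 large Colon 26 tumors only just. Ckm, the muscle creatine kinase that buffers ATP, followed with 29.6, 226, 11.1 and 34.0 CPM in Colon 26 tumors of 100 mm3 and 0.255, 0.508, 0.397 and 0.0369 CPM at 800 mm3. In CT-26 tumors of 800 mm3 Ckm was at 6.51, 0.881, 35.5 and 0.810 CPM. Des, which the cultures expressed, spanned less, from 1.98 CPM in CT-26 tumor 1 of 100 mm3 to 235 CPM in Colon 26 tumor 1 of 400 mm3.

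**Figure D3:**
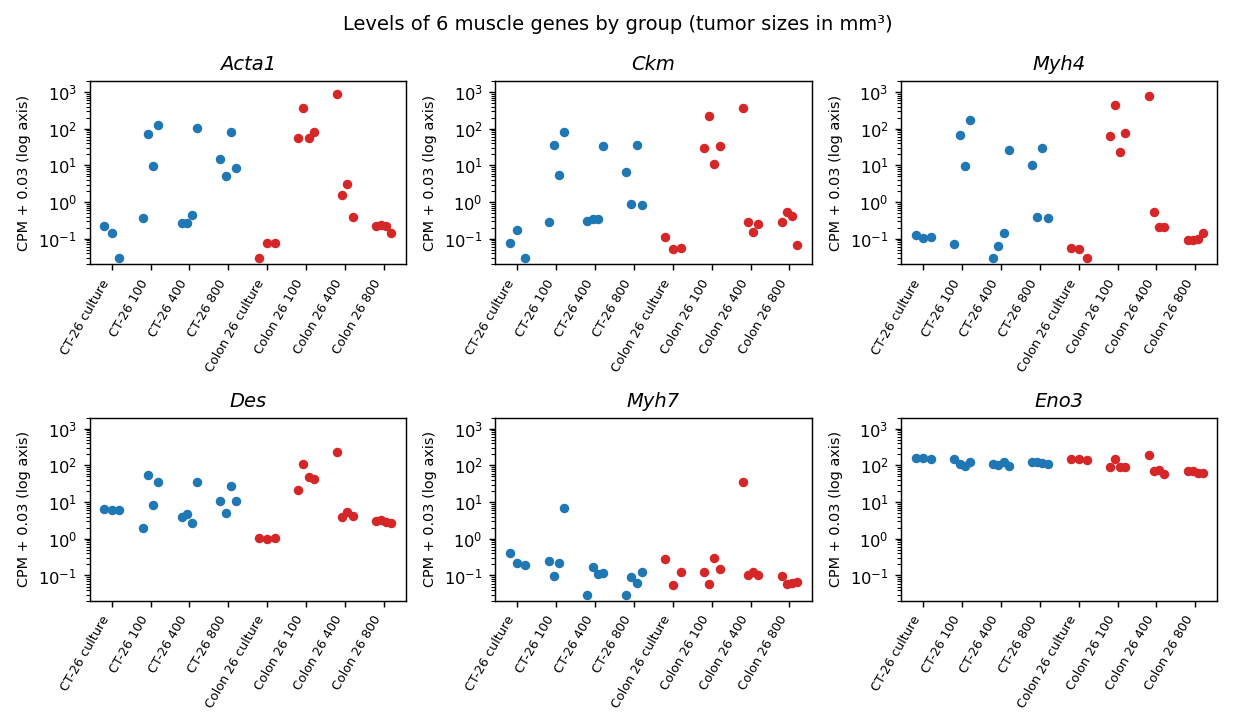
CPM of Acta1, Ckm, Myh4, Des, Myh7 and Eno3 in each library by group, on log axes after adding 0.03, with CT-26 in blue and Colon 26 in red. Acta1, Ckm and Myh4 share the same high tumors, Myh7 stands out in 2 tumors, and Eno3 stays between 58.2 and 194 CPM in every library.

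The fast genes took 41.8 to 61.7% of the summed CPM without Eno3 in the 9 tumors where that sum was at least 100 CPM, and 29.1 to 36.9% in the Colon 26 tumors of 800 mm3. The Colon 26 cultures had about the same share as these large tumors, 31.2 to 32.9%. Their sum was 8.22 to 9.22 CPM, against 10.8 to 12.1 CPM in the large tumors. Over all 15 tumors below 100 CPM the share was 21.6 to 56.8%. Compared per length, as the deposited FPKM values, which divide reads by gene length and library size, Colon 26 tumor 1 of 400 mm3 held Acta1 at 643, the fast troponins Tnnc2, Tnnt3 and Tnni2 at 345, 310 and 204, Ckm at 224, Mylpf at 220 and Myh4 at 134 FPKM. In Colon 26 tumor 2 of 100 mm3 the same genes were at 260, 155, 153, 103, 135, 105 and 77.1 FPKM. The calcium pump Atp2a1 reached 446 CPM in the first of these tumors and 258 CPM in the second. Pvalb, the calcium buffer of the fastest fibers, had 2344 and 2716 counts in these 2 tumors, 915 in CT-26 tumor 4 of 100 mm3, and 0 in all 6 cultures and in all 4 Colon 26 tumors of 800 mm3. A count of 0 allows up to 3 counts per library.

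Mybpc2, the fast form of myosin binding protein C, had 285, 2878, 190 and 311 counts in Colon 26 tumors of 100 mm3 and 1, 2, 2 and 1 in those of 800 mm3. Casq1, which binds calcium in the sarcoplasmic reticulum, had 136, 868, 42 and 101 counts and 3, 2, 1 and 4 counts in the same tumors. For both genes every small tumor was above every large one. Myl1, a fast myosin light chain, had 86, 22, 379 and 34 counts in CT-26 tumors of 800 mm3 and 3, 5, 1 and 0 in Colon 26 tumors of that size, with no overlap. Tnni2, the fast troponin I, had 7 to 17 counts in the large Colon 26 tumors and 0 to 1 in the 6 cultures. Tnnt3, the fast troponin T, had 1 to 9 counts in those tumors and 0 in the cultures. Both genes had more counts in every tumor than in any culture. Myoz1, a protein of the Z disc, had 15 to 22 counts in the large Colon 26 tumors and 3 to 6 in the cultures.

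Myosin heavy chains showed which fast isoform was present. Myh1 (type IIx), Myh2 (type IIa), Myh4 (type IIb) and the developmental Myh3 and Myh8 lie in a row on chromosome 11, from 67078300 to 67308634, and are close relatives. How reads that fit several of them were divided was not given in the sources used here. Of the 24 tumors, 12 had at least 100 counts on the 6 myosin genes of the set. Fast isoforms made up 94.8 to 99.7% of the summed FPKM of these genes in all 12. Within the fast isoforms the order differed between tumors.

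Myh4 led in the 5 of these tumors that were of Colon 26, with 71.6, 93.1, 54.3 and 70.5% at 100 mm3 and 72.5% in tumor 1 of 400 mm3. It also led in CT-26 tumors 2, 3 and 4 of 100 mm3, with 67.4, 61.7 and 72.5%, and in CT-26 tumor 1 of 800 mm3, with 67.2%. Myh1 led instead in CT-26 tumor 4 of 400 mm3 with 67.7% against 17.6% for Myh4, and in CT-26 tumors 3 and 4 of 800 mm3 with 59.2 and 70.5% against 28.1 and 4.91%. On counts, Myh1 took 67.8% of the myosin counts of CT-26 tumor 4 of 400 mm3 (95% Wilson interval 66.2 to 69.3) and 14.2% (13.9 to 14.6) in Colon 26 tumor 1 of 400 mm3, so the difference was beyond counting error. Myh4 over Myh1 in FPKM ran from 0.0697 to 17.3 among the 12 tumors. CT-26 tumor 2 of 800 mm3, which was below this minimum, had 98 counts on these genes and 63.0% Myh1. Colon 26 tumor 3 of 400 mm3, also below it with 56 counts, had 34.2% Myh1 and 10.9% Myh4. Of the 12 tumors, the 3 led by Myh1 were CT-26 tumors of 400 or 800 mm3, which was noticed in the data and not tested.

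**Figure D4:**
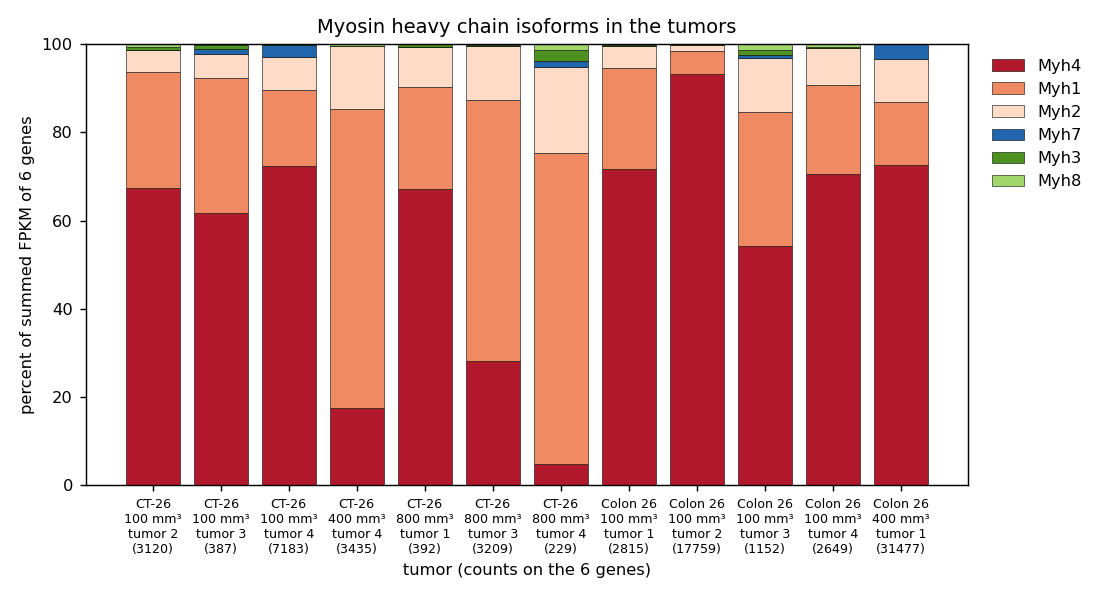
Share of each of 6 myosin heavy chain genes in their summed FPKM, as stacked bars, in the 12 tumors with at least 100 counts on these genes (counts in parentheses). Myh4 is the largest part in 9 tumors and Myh1 in 3 CT-26 tumors, and the slow Myh7 is visible mainly in CT-26 tumor 4 of 100 mm3 and Colon 26 tumor 1 of 400 mm3.

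In the 2 tumors with the most muscle RNA the fast and slow partners of the troponins and light chains gave the same picture. In Colon 26 tumor 1 of 400 mm3 the fast gene made up 97.6% of the FPKM of Tnni2 and Tnni1, 96.9% of Tnnt3 and Tnnt1, and 96.1% of Tnnc2 and Tnnc1. The regulatory light chain there was 95.3% Mylpf against Myl2, and the essential light chain 97.8% Myl1 against Myl3. In Colon 26 tumor 2 of 100 mm3 the shares of the 3 troponins were 98.7, 99.1 and 99.3%. Fast shares were lower in some others of the 12 tumors. In CT-26 tumor 4 of 800 mm3 they were 86.5% for Tnni2 and 63.4% for Tnnc2, the latter on 59 counts. Tnnc1, the slow troponin C, had 55 to 77 counts in the cultures and at most 30 counts in 22 of the 24 tumors.

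Of the slow-fiber genes, Myh7, Myl2 and Myl3 were well above the cultures in 2 tumors only. Myh7, the heavy chain of slow fibers, had 1077 counts in Colon 26 tumor 1 of 400 mm3 and 204 in CT-26 tumor 4 of 100 mm3, at most 7 in the other 22 tumors, and 1 to 9 in the cultures. Myl2, the slow regulatory light chain, had 206 and 35 counts in these 2 tumors and at most 3 in the others, and Myl3 had 92 and 22 counts and at most 2 in the others. Both tumors were among those with the most fast myosin, but Colon 26 tumor 2 of 100 mm3, with 16533 counts of Myh4, had 1 count of Myh7, 3 of Myl2 and 0 of Myl3. Myh7 was thus 3.42% of the myosin counts in the first tumor (95% Wilson interval 3.23 to 3.63), 2.84% in the second (2.48 to 3.25) and 0.00563% in the third (0.000994 to 0.0319). Myh6, the cardiac paralog next to Myh7, also had counts in the first 2 of these tumors, 132 and 23, and at most 2 in the other tumors. Exons of 17 of the 36 genes, Myh7, Myh1, Ckm and Des among them, overlap those of a gene on the other strand, and whether strand was used in counting was not given in the sources used here.

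Other genes named for slow fibers were less confined to these 2 tumors. Mybpc1, the slow form of myosin binding protein C, had 2058 counts in Colon 26 tumor 1 of 400 mm3, 523 in Colon 26 tumor 2 of 100 mm3 and 340 in CT-26 tumor 4 of 400 mm3, and followed the fast genes. It made up most of the Mybpc1 and Mybpc2 FPKM in the last of these tumors, where Mybpc2 held 46.9%. Tnnt1 ranged from 1 to 282 counts and Tnni1 from 2 to 160 in the tumors, both highest in Colon 26 tumor 1 of 400 mm3. In the cultures Mybpc1 had at most 1 count and Tnnt1 at most 2. Tnnt1 had 30 counts in CT-26 tumor 2 of 100 mm3 and 44 in Colon 26 tumor 2 of that size. Tnni1 in CT-26 cultures, 10 to 16 counts, was as high as in many tumors.

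The developmental myosins had few counts in every tumor. Embryonic Myh3 had 1 to 28 counts in the tumors and 1 to 12 in the cultures. Perinatal Myh8 had at most 1 count in the cultures, 24 in CT-26 tumor 2 of 100 mm3, 13 in CT-26 tumor 4 of 400 mm3, and 8, 28, 15 and 17 in the Colon 26 tumors of 100 mm3. Myh8 had 0 counts in all 4 Colon 26 tumors of 800 mm3, so these 2 sizes did not overlap. It had 1 count in Colon 26 tumor 1 of 400 mm3, which had 22788 counts of Myh4. Per 1000 counts of Ckm, taken as a rough scale of muscle RNA, Myh8 was at 50.7 in Colon 26 tumor 3 of 100 mm3, 21.1 in CT-26 tumor 2 of 100 mm3 and 0.0894 in Colon 26 tumor 1 of 400 mm3. Myog, the myogenic factor of differentiating myoblasts, had 0 counts in all cultures, 38 in CT-26 tumor 2 of 100 mm3, 44, 22 and 20 in Colon 26 tumors 2, 3 and 4 of 100 mm3 and 63 in Colon 26 tumor 1 of 400 mm3. On the same scale Myog was at 74.3, 33.5 and 5.63 in the 3 tumors named for Myh8. CT-26 tumor 4 of 800 mm3 was higher on this scale, at 115 for Myh8 and 385 for Myog, over 26 counts of Ckm. Other muscle genes also varied against Ckm. In these 4 tumors, in the order named, Acta1 was at 4966, 1995, 2347 and 10500 per 1000 counts of Ckm. Des was at 4503, 1469, 623 and 13500. The ratios of Myh8 and Myog therefore depend on the choice of Ckm as the scale. They rest on few counts of the low genes, and their difference between tumors was not tested. Pax7, the marker of satellite cells, had at most 3 counts in any tumor.

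Genes of all fiber types behaved like the fast ones, except Eno3 and, in part, Des, Ttn and Pygm. Neb, the ruler of the thin filament, was at 9.85, 48.4, 8.99 and 12.7 CPM in Colon 26 tumors of 100 mm3 and at 0.670, 0.866, 0.827 and 0.701 CPM at 800 mm3. Ttn, the giant spring of the sarcomere, was at 18.2, 100, 15.1 and 23.5 CPM and at 1.40, 1.31, 1.29 and 0.996 CPM in the same tumors. For Ttn the Colon 26 cultures were at 1.06, 1.40 and 0.879 CPM, about the level of the large tumors. Mb, the oxygen store myoglobin, had 693 counts in Colon 26 tumor 1 of 400 mm3 and at most 166 in any other tumor. Pygm, the glycogen phosphorylase of muscle, had 269, 2359, 61 and 184 counts in Colon 26 tumors of 100 mm3, 12, 9, 4 and 2 in those of 800 mm3 and 10, 20 and 17 in the Colon 26 cultures, so the large tumors and the cultures overlapped. Tcap, which caps titin at the Z disc, had 96, 737, 35 and 135 counts in the small tumors and 1, 1, 3 and 2 in the large ones. Cacna1s and Ryr1, the voltage sensor and the calcium release channel, and the Z-disc proteins Actn2, Myot and Tcap were highest in the same tumor.

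Between the models at 100 mm3, 0 of the 32 genes tested were called in edgeR, 0 were at an unadjusted p under 0.05 and 0 were called in DESeq2, while 13.2% of all genes tested were called. Log2 fold changes of Colon 26 over CT-26 ranged from -0.64 to 1.40, with 27 of 32 positive and a median of 0.98, against a median of 0.00 over all genes. Acta1 was 1.40 higher in Colon 26 (SE 1.18, adjusted p = 0.36 in edgeR) and Myh4 1.26 higher (SE 1.35, adjusted p = 0.47 in edgeR). For Acta1, 2 CT-26 tumors of this size lay below all Colon 26 tumors and 2 within their range. With errors of this size the test does not show that the models were alike.

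At 400 mm3 the comparison rested on single tumors. Of 13 genes tested 1, Actn3, was called higher in Colon 26, with 2882, 47, 73 and 35 counts against 4, 8, 8 and 106 in CT-26 (log2 fold change 4.33, SE 1.73, adjusted p = 0.072 in edgeR), where 6.48% of all genes tested were called higher. Actn3 was also the member that was higher in Colon 26 cultures. It was not called in DESeq2, which called Myh3, nor without CT-26 tumor 1, 2 or 3, when Tnni1 and Myh3 were called. Without Colon 26 tumor 1 no gene of the set was called, and without CT-26 tumor 4 there were 12. These were the 2 tumors of this size in which the set was high.

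At 800 mm3 the models stood apart. Of 22 genes tested, 18 were lower in Colon 26, where 7.62% of all genes tested were called lower, 11 of 12 fast genes, 7 of 8 genes of all fiber types and 0 of 2 slow genes. Acta1 was at 14.5, 5.26, 80.2 and 8.51 CPM in CT-26 and at 0.192, 0.209, 0.198 and 0.111 CPM in Colon 26, 153 times lower by the group means (log2 fold change -7.21, adjusted p = 0.0004 in edgeR). The groups did not overlap, and without CT-26 tumor 3 the ratio was 53.2. Myh1 had 90, 62, 1902 and 161 counts in CT-26 and 0, 0, 1 and 3 in Colon 26, a ratio of 553 by summed counts (95% exact binomial interval 216 to 2033, counting error only) that fell to 103 without CT-26 tumor 3. Mylpf was 9.22 times lower and Des 4.61 times lower by group means, both with separate groups, and 4.39 and 3.04 times lower without that tumor. The cultures differed the same way, with means of 1.87 CPM (CT-26) against 0.618 CPM (Colon 26) for Mylpf, a ratio of 3.03, and of 6.25 against 0.989 CPM for Des, a ratio of 6.32 that was larger than the one in the tumors. What the carcinoma cells add to these 2 differences in the tumors was not tested. Of the 33 genes of the set with over 3 counts in some tumor of this size, 24 were lower in Colon 26 with no overlap between the groups, as were 21.1% of all genes with such counts. Myoz1, Tnni1 and Tnnc1 did not pass the test, with log2 fold changes of -1.01, -0.71 and -0.74. Eno3 was lower by 0.84 on the log2 scale (SE 0.07, adjusted p = 6.6e-06 in edgeR), under the fold change required for a call. Most of the genes tested passed the filter through the CT-26 tumors, 21 in every CT-26 tumor and 8 in every Colon 26 tumor, so the share called holds for genes that had counts there. CT-26 tumor 3 of 800 mm3 held most of the muscle counts of its group, and without it 16 genes were called. DESeq2 called 21 genes of the set lower, and 1581 over all genes. Its calls held 15 of the 18 from edgeR, without Myh1, Neb and Pygm.

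In Colon 26 the muscle genes were lower in the large tumors than in the small ones. From 100 to 800 mm3, 28 of the 30 genes tested fell, where 1.16% of all genes tested fell, with all 14 fast genes, 12 of 13 genes of all fiber types and 2 of 3 slow genes among them. In the 20 genes with over 3 counts in some large tumor, log2 fold changes ran from -9.58 to -0.59. The median over all 30 was -6.81 as fitted and -6.03 with the other 10 genes set to 3 counts per library in the large tumors, against a median of 0.00 over all genes. Myh4 had 2015, 16533, 624 and 1865 counts at 100 mm3 and 2, 2, 2 and 3 at 800 mm3, a ratio of 2414 by summed counts (95% exact binomial interval 1272 to 5281, counting error only, adjusted p = 0.0094 in edgeR) and of 746 without tumor 2 of 100 mm3. Pvalb, at 0 in the large tumors, was at least 226-fold lower against 3 counts per library, and at least 49.96-fold without that small tumor. Acta1, with the values given above, was 788 times lower by group means (log2 fold change -9.58, SE 1.05, adjusted p = 0.0046 in edgeR), and 356 times lower without that tumor. Myh1, Myh2 and Actn2 had the smallest p-values of the set. They summed to 4, 2 and 3 counts over the 4 large tumors, with ratios by summed counts of 644 (251 to 2365), 367 (101 to 3038) and 226 (76.9 to 1098). Actn2, the alpha-actinin of the Z disc, was at 5.52 ± 1.15 CPM (SD, n = 4) in the small tumors, a narrow spread beside that of Acta1, 140 ± 154 CPM (SD, n = 4). Of 34 genes with over 3 counts in some tumor, 30 were lower at 800 mm3 with no overlap between the sizes, against 5.73% of all genes with such counts. Tnnc1 (log2 fold change -0.59, adjusted p = 0.45 in edgeR) and Eno3 (-0.66, adjusted p = 0.062) were not called. Myh7, Tnnt1, Myl2, Myl3, Myh3 and Myh8 did not pass the filter. All 30 genes tested passed it in every tumor of 100 mm3 and 8 of them in every tumor of 800 mm3, so genes absent at 100 mm3 could not be called lower. With no filter, 30 of all 36 were called lower. DESeq2 called 29 of the set lower, and 257 over all genes. Its calls held 26 of the 28 from edgeR, without Actn3 and Ryr1. The large Colon 26 tumors are shared by this comparison and that of the models at 800 mm3, so they are not independent.

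In CT-26 the same comparison gave 0 called genes of 31 tested, with 1 at an unadjusted p under 0.05. Over all genes 0% were called by edgeR in this comparison, with 1610 genes at an unadjusted p under 0.05, and DESeq2 called 22 higher and 17 lower, none of the set. All 31 log2 fold changes were negative, from -2.66 to -0.01 with a median of -1.19. Myh4 had 1, 2095, 239 and 5194 counts at 100 mm3 and 264, 12, 900 and 11 at 800 mm3 (log2 fold change -2.66, SE 1.56, adjusted p = 0.54 in edgeR). Myh1 had 0, 826, 118 and 1238 counts and 90, 62, 1902 and 161 counts (log2 fold change -0.01, SE 1.33). The sizes overlapped for both genes, as the small CT-26 tumors included 1 with almost no muscle RNA and the large ones included 1 with much.

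Whether the change with size differed between the models was tested as an interaction. In edgeR 0 of 32 genes were called, where 0.0308% of all genes tested were called in either direction. At an unadjusted p under 0.05 were 26 of the 32, and 2031 of all 16238 genes tested. Acta1 had the smallest adjusted p of the set (interaction -8.62 on the log2 scale, SE 2.13, adjusted p = 0.13 in edgeR). DESeq2 called 17 of the 36 more lowered in Colon 26, and 5 of the 36 had no adjusted p. It called 0.566% of all genes with an adjusted p. Myh1, Myh2, Myh4, Acta1, Ckm and Des were among the 17 genes of the set. In edgeR, 3 genes (Myh1, Actn2 and Acta1) were called without CT-26 tumor 1 of 100 mm3 and likewise without CT-26 tumor 1 of 800 mm3. A difference of the size change between the models therefore depended on the tool.

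Further genes of muscle fibers moved with the set. By the Pearson correlation of log2 CPM with the log2 summed CPM of the set over the 24 tumors, given as a measure of likeness only, the 10 most similar genes outside it, among genes with a mean of at least 100 counts over the tumors, were Pgam2 (0.97), Cmya5 (0.96), Nrap (0.94), Srl (0.94), Ankrd23 (0.93), Ldb3 (0.92), Xirp2 (0.90), Fhl1 (0.89), Ndrg2 (0.86) and Coq8a (0.80). Pgam2 is the muscle phosphoglycerate mutase of glycolysis, and Nrap, Ldb3, Xirp2 and Cmya5 encode proteins of the myofibril. All 10 were highest in Colon 26 tumor 1 of 400 mm3, so that tumor has a large part in the values. The summed CPM used here kept Eno3. It made up 93.8% of that sum in CT-26 tumor 1 of 100 mm3 and 3.63% in Colon 26 tumor 1 of 400 mm3, so low tumors were ranked largely by Eno3. Within the set, with each gene left out of this sum in turn, Pygm and Neb were most similar to the rest (0.98 and 0.97) and Eno3 (0.56), Myh3 (0.56) and Myl2 (0.57) least. Of 31 further fiber genes, 25 passed the filter from 100 to 800 mm3 in Colon 26. Of these 25, 19 fell, where 1.16% of all genes tested fell, and their median log2 fold change was -3.56 over the 25. Some of them passed the filter through the small tumors, as Trdn did with 61, 289, 26 and 45 counts there. In the large tumors Trdn had 0, 1, 0 and 0 counts. Such genes could only be called lower, and the median keeps their fitted values.

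Markers of tissues that adjoin muscle, or share genes with it, did not follow the set as closely over the tumors. The Pearson correlation of each log2 summed list with the log2 summed set over the 24 tumors, Eno3 kept, is given as likeness only. It was 0.97 for the further fiber genes, 0.80 for myogenic and satellite cell genes, and 0.37 (tendon) or lower for all other lists. Of the lists tested over the size change in Colon 26, 0 of 6 smooth muscle genes, 0 of 7 adipocyte genes, 0 of 7 nerve genes and 0 of 1 skin gene were called. Of all genes tested 1.16% were called lower, so 0 called in lists this short does not set these tissues apart. The tendon factor Scx was the 1 of 3 tendon genes that fell (log2 fold change -1.08, adjusted p = 0.066 in edgeR). Among 3 cardiac genes tested Tnnt2 and Myl4 fell, and of 6 atrophy genes the ubiquitin ligase Trim63 fell, which had 358 and 289 counts in the 2 tumors with the most muscle RNA. The endplate gene Rapsn rose by 1.16 on the log2 scale, and 0 of 8 myogenic and satellite cell genes passed the filter. Summed tendon genes reached 46.5 CPM in the tumors and were highest in Colon 26 tumor 1 of 400 mm3, where the tenocyte gene Tnmd had 30 counts against at most 5 elsewhere. Summed skin genes were at 83.0 CPM in CT-26 tumor 4 of 800 mm3, which had 1618 counts of the keratin Krt14 and 53.0 CPM of muscle genes. Adipocyte genes ranged from 22.8 to 82.6 CPM and were highest in Colon 26 tumor 3 of 800 mm3, where the muscle genes were at 10.8 CPM. In some groups the tumor highest in muscle genes was also highest in adipocyte genes. These were CT-26 tumor 4 of 100 mm3 (67.2 CPM), CT-26 tumor 4 of 400 mm3 (73.9) and Colon 26 tumor 1 of 400 mm3 (69.0). In the other groups it was not, with 45.6 CPM in CT-26 tumor 3 of 800 mm3 and 40.9 CPM in Colon 26 tumor 2 of 100 mm3. Over the tumors, smooth muscle genes stayed between 91.3 and 197 CPM and nerve genes between 44.2 and 108 CPM. Whether muscle fibers came with these tissues was not tested.

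**Figure D5:**
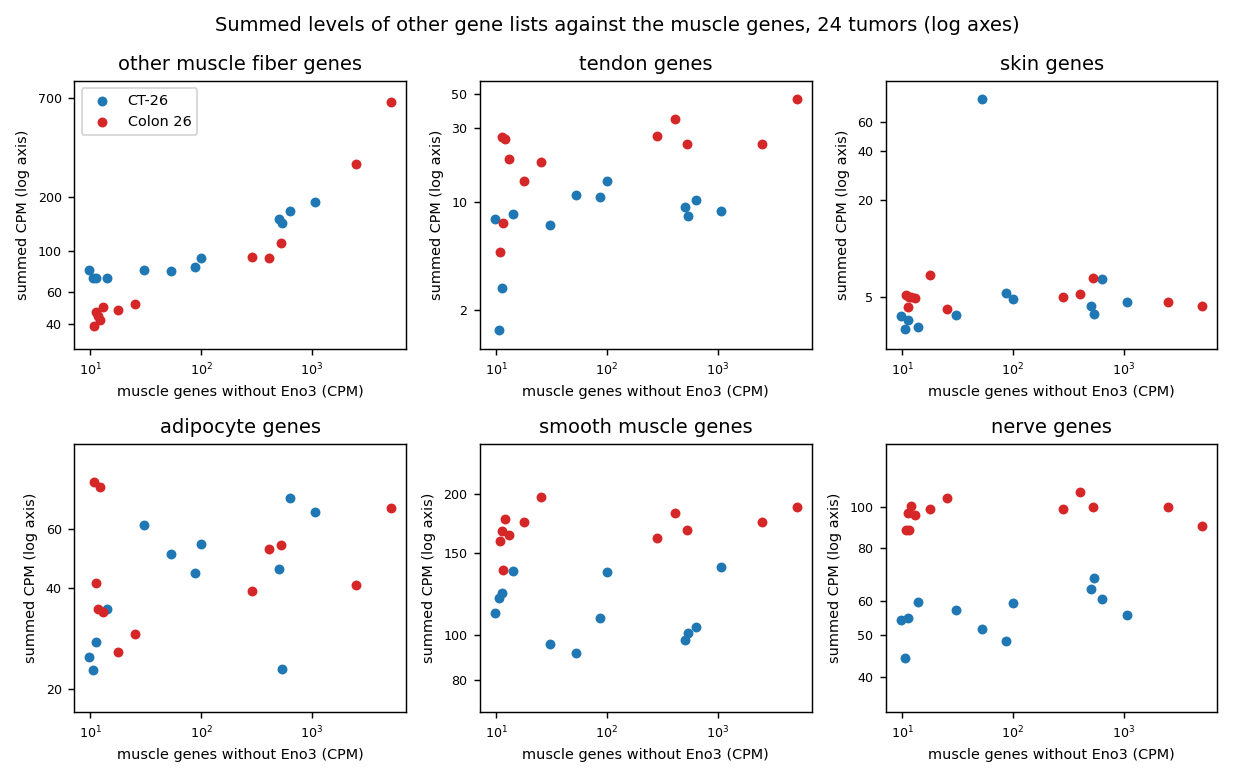
Summed CPM of 6 other gene lists (vertical axes) against the summed CPM of the muscle genes without Eno3 (horizontal axes) in the 24 tumors, on log axes, with CT-26 in blue and Colon 26 in red. The other muscle fiber genes rise with the set to 664 CPM, while skin genes stand out in 1 CT-26 tumor at 83.0 CPM and adipocyte genes are highest in 2 Colon 26 tumors with few muscle genes. The next highest for adipocyte genes, at 73.9 CPM, is CT-26 tumor 4 of 400 mm3, which is high in muscle genes.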

How the data were processed

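RNA-seq libraries of 24 tumors and 6 cultures were grouped into 8 groups by the model, tissue and size in their labels. Poly-A RNA was sequenced from both ends after TruSeq mRNA preparation. The authors counted reads on Ensembl release 78 genes with Array Studio 10.0.1.118 and deposited estimated counts, which are not normalized, and FPKM. The aligner, genome build and handling of strand were not given in the sources used here, and the authors' test was DESeq2 1.24.0 (submitters' processing notes). Fractions occurred in 23.0% of the estimated counts above 0, so all were rounded before testing, although the planned design named raw counts. No column of a library was left unused (0 columns).

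Genes were compared by edgeR 4.0.16 in R 4.3.3 (quasi-likelihood test after TMM scaling and filterByExpr, Benjamini-Hochberg adjustment over all genes tested), with only the groups of a comparison in each fit. Genes were called by the thresholds of the study, 0.1 for the adjusted p and 1 for the size of the log2 fold change. Standard errors were derived from the F statistic. The change of the model difference with size was an interaction term. DESeq2 1.42.0 with default parameters was an alternative, as were RLE factors, library size alone, no filter, at least 10 counts in every library, a robust estimate of the spread, an adjusted p of 0.05 and leaving out each library. CPM were scaled by TMM over all 30 libraries, and FPKM were used to compare genes. Where a group had at most 3 counts in every library, the fold is the ratio of summed counts per summed library size with an exact binomial interval, and where all its counts were 0 it was computed against 3 counts per library as a lower bound. Intervals and floors cover counting error only, since reads carried no molecular identifiers. The same fits were also run on simulated counts, whose results are not given here.

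Counts summed to 21384697 to 39722554 per library. Symbols and positions came from the GENCODE annotation of GRCm38, which held 52207 of 53431 identifiers (97.7%). Promoter windows came from RefSeq (GRCm38.p6). Other computations used Python 3.11.15, numpy 2.4.6, pandas 2.3.3 and scipy 1.17.1. All 36 genes of the set were named by rule, with the 10 genes outside it whose log2 CPM (prior count 2, mean count of at least 100 over the tumors) had the highest Pearson correlation with its summed level, Eno3 included, and genes of 10 lists for other muscle, heart, smooth muscle, fat, skin, nerve and tendon where a count refers to them. The members and lists were chosen with earlier results of these data known. Antibody treatment, flow cytometry and exome data were not analysed here.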

Additional observations from a re-analysis of the deposited data

Results flagged for a closer look

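Values were marked where 1 of 4 tumors lay far from the other 3 of its group by Dixon's ratio at its 95% critical value. Chance gives this in about 1 of 20 groups if values follow a normal distribution. The CPM were not put on a log scale and spanned a wide range within some groups, so this rate may not hold. In all, 36 sums and shares were examined, and the single genes in each of the 6 groups. The genes of the set largely rose together, so the single genes of 1 tumor are not separate marks. The sums are CPM and exclude Eno3 where all genes of the set are added. CT-26 tumor 4 of 400 mm3 stood apart in the summed set (633 CPM), the fast genes (356), the slow genes (16.0), the developmental genes (0.641), the genes of all fiber types (359) and 29 single genes. CT-26 tumor 3 of 800 mm3 stood apart in the set (504 CPM), the fast genes (291), the slow genes (10.4), the genes of all fiber types (320) and 15 single genes. Colon 26 tumor 2 of 100 mm3 did so in the set (2495 CPM), the fast genes (1473), the genes of all fiber types (1150) and 21 single genes. Colon 26 tumor 1 of 400 mm3 did so in the set (5147 CPM), the fast genes (2807), the slow genes (140.1), the genes of all fiber types (2392) and 34 single genes, and Colon 26 tumor 4 of that size in 1 gene. CT-26 tumor 4 of 100 mm3 stood apart in 3 genes.

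Other marks rested on few counts. CT-26 tumor 1 of 100 mm3 was low in the share of fast isoforms among myosin heavy chains (14.7% of FPKM), with 7 counts on these genes in all. Colon 26 tumor 4 of 800 mm3 was high in the developmental myosins (0.184 CPM) and stood apart in 1 gene, and Colon 26 tumor 1 of 800 mm3 in 2 genes. No gene of the set was called for a size change that differed between the models in edgeR.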

How the results depend on the processing

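The number of muscle genes called was recomputed for each comparison. With at least 10 counts in every library it was 2 between cultures, 0 between models at 400 mm3, 6 at 800 mm3 and 7 for size in Colon 26, where 8 were tested. With no filter it was 1 between models at 100 mm3 (Myh7, lower in Colon 26) and 5 at 400 mm3, and with an adjusted p of 0.05 it was 0 at 400 mm3. DESeq2 called 17 for the interaction of size and model, and at 400 mm3 it gave no adjusted p for 33 of the 36 genes. Leaving out 1 library gave 4 to 5 genes between cultures, 0 to 1 between models at 100 mm3 (1 without CT-26 tumor 2 or tumor 4), 0 to 12 at 400 mm3, 16 to 21 at 800 mm3, 25 to 29 for size in Colon 26 and 0 to 3 for the interaction (3 without CT-26 tumor 1 of 100 mm3 or of 800 mm3). For size in CT-26 it gave 0 each time. At 400 mm3, where 1 gene was called, the count was 0 without Colon 26 tumor 1, 2 without CT-26 tumor 1, 2 or 3 (Tnni1 and Myh3, not Actn3), 4 without Colon 26 tumor 2, 6 without Colon 26 tumor 4 and 12 without CT-26 tumor 4. The cause of these changes was not tested, other than that a stricter filter tested fewer genes. No called gene changed direction under any of these settings. Of the group levels, the mean summed CPM without Eno3 (chosen after seeing the data) was 11.5 in Colon 26 tumors of 800 mm3, 16.7 in CT-26 cultures and 8.59 in Colon 26 cultures. With library size alone Colon 26 cultures were at 162 CPM with Eno3. Less the culture level, the fast share of myosin FPKM in Colon 26 tumors of 800 mm3 was 100% on at most 12 counts. No paired analysis was possible because the labels give no replicate numbers, and the numbers used here are only names in record order. Genes with few counts were not resolved at this depth.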

Other observations

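Chrna1, the alpha subunit of the muscle acetylcholine receptor, followed the muscle genes in part. It had 69, 154, 208 and 341 counts in CT-26 tumors of 800 mm3 and 62, 50, 65 and 116 at 100 mm3, with 26, 40 and 37 in CT-26 cultures. In Colon 26 it had 9, 3, 10 and 8 counts at 800 mm3, 10, 88, 18 and 10 at 100 mm3, 129, 14, 9 and 9 at 400 mm3 and at most 4 in cultures. The 2 high Colon 26 tumors were those with the most muscle RNA. In CT-26 tumors of 400 mm3 it had 86, 99, 123 and 127 counts, although only tumor 4 was high in muscle genes. Its highest tumor, CT-26 tumor 4 of 800 mm3, was also the one with the most skin keratins and had 53.0 CPM of muscle genes.

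Fbxo32, a ubiquitin ligase that rises in wasting muscle, differed between the models and not with the level of the muscle genes, with 286 to 588 counts in Colon 26 tumors, 27 to 110 in CT-26 tumors, 225, 255 and 253 in Colon 26 cultures and 43, 44 and 52 in CT-26 cultures. The 2 ranges of tumors did not overlap. Trim63, the other ligase of this kind, followed the muscle genes instead.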
